A study of Homo sapiens with 2 samples.

Results

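The genes described here are 10 named members of the transforming growth factor beta (TGF-beta) pathway, picked by their symbols: the ligand genes TGFB1 and TGFB2, the receptor genes TGFBR1 and TGFBR2, the signal transducer genes SMAD3, SMAD4 and SMAD7, and the ID1, ID2 and ID3 genes. All 10 were found by symbol among the 58735 gene rows of the deposited table. The table compares RNA-seq libraries of SUIT-2, an established human pancreatic adenocarcinoma cell line, in a derivative with high metastatic potential. The untreated group (label NC) and the group treated with dihydroartemisinin (DHA, the active metabolite of the antimalarial artemisinins) have 1 library each and share the cell line. The labels give neither a dose nor an exposure time, and do not say whether NC received a vehicle or whether the derivative is a single clone. With 1 library a group there is no replicate check, no p-value was computed, and every difference compares these libraries only.

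TGF-beta ligands are secreted in a latent form, and once released they bring the type II receptor (TGFBR2) together with the type I receptor (TGFBR1), which phosphorylates SMAD2 and SMAD3. These join the common partner SMAD4 and enter the nucleus to regulate genes, while bone morphogenetic proteins (BMPs) act through SMAD1 and SMAD5 in the same way. SMAD6 and SMAD7 are inhibitory SMADs that block the receptors, and the ID genes, classical BMP targets, encode proteins that bind E proteins and keep them off DNA. In pancreatic cancer this pathway is known for restraining epithelial growth and for driving the mesenchymal transition, and SMAD4 is a tumour suppressor that many of these tumours have lost.

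Counted reads came to 15452609 for NC and 14521101 for DHA. Ductal or carcinoma epithelial markers were present, with 6 of 7 past 50 reads, and all 6 were lower with DHA by 2-fold or more. Their summed level was 2414 TPM (reads per gene length, scaled to the same total in each library) without DHA and 1032 with it. The sum does not show the spread of the 6 genes, which ran from 2.34-fold lower (KRT18) to 37.6-fold lower (CDH1, 933 and 23 reads). Retina markers, looked for because the protocol text names retina, had 20 and 10 reads in all, with 4 of 6 genes at 0 in both libraries. Of the markers of other cell types, PTPRC and CD3E of leukocytes, CDH5 of endothelium, COL1A2, COL3A1 and DCN of fibroblasts, and PRSS1, CPA1 and PNLIP of acinar cells were at 0 in both libraries. Other markers of these lists had reads. Among fibroblast markers, COL1A1 had 83 and 11 reads, PDGFRB 26 and 2, and LUM 21 and 1. Among leukocyte markers, LYZ had 22 and 12 reads and CD14 11 and 8. The summed level was 4.31 and 3.06 TPM for 6 leukocyte, 3.96 and 0.423 TPM for 7 fibroblast, 7.56 and 2.10 TPM for 5 endothelial and 0.169 and 0 TPM for 4 acinar markers, in the untreated and the DHA library. PECAM1, an adhesion protein gene, held 7.45 and 1.70 TPM of the endothelial sum, with 280 and 54 reads.

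A minimum of 50 reads in either library was passed by 8 of the 10 genes, and the other two, SMAD4 and ID3, did not. The call of higher or lower asked for that minimum, a 2-fold or larger ratio, and a 95% counting interval of the ratio without 1 in it. By this rule 1 of the 8 genes, TGFB2, was lower and 0 were higher. Over all 12064 genes past the minimum, 6.72% were called higher and 10.3% lower, so that 17.0% were called in either direction, and the count among the members is close to that background. The median log2 ratio of the 8 genes was -0.03, with 4 above and 4 below 0, beside a median of 0.04 over all genes. With TMM scaling, counting intervals excluded 1 for 7 of the 8 genes, all but SMAD3, but they cover counting error only and not variation between cultures. At 1.5-fold, 1 member was higher (SMAD7) and 2 were lower (TGFB2 and ID2), against 18.9% and 19.2% of all genes (38.2% in either direction). The SMAD7 and ID2 calls at 1.5-fold depended on the scaling or the trend. SMAD7, at 0.60 on the log2 scale, dropped under 1.5-fold by DESeq2 (0.57) and upper-quartile scaling (0.54). ID2 did so with the length trend removed (-0.55). Other members passed 1.5-fold only under an alternative. TGFBR1 was higher when scaled by total reads (0.60), and TGFBR2 lower by DESeq2 (-0.5855) and upper-quartile scaling (-0.61). TGFB1 was higher with the length trend removed (0.61) and with the GC trend removed as well (0.60). In cells counted in bulk, fewer cells of a type and less RNA per cell cannot be told apart.

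**Figure D1:**
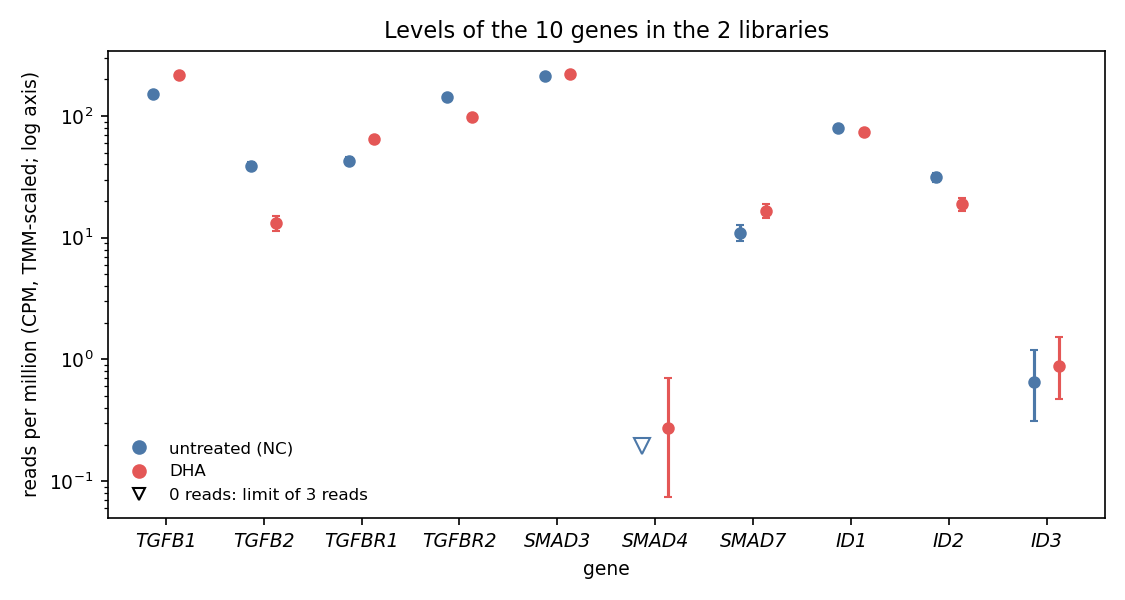
Level of each of the 10 genes (CPM, TMM-scaled, log axis) in the untreated (blue) and the DHA library (red). Bars are 95% Poisson intervals of the count in that library, and the open triangle marks the limit of 3 reads where SMAD4 had 0 reads; SMAD4 and ID3 lie below all others, and TGFB2 shows the widest gap between libraries.

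Compared per length, the untreated library ranked the 10 genes in the order ID1 (207 TPM), TGFB1 (150), TGFBR2 (96.7), SMAD3 (74.0), ID2 (45.0), TGFB2 (24.03), TGFBR1 (19.96), SMAD7 (6.89), ID3 (1.15) and SMAD4 (0). In the DHA library TGFB1 stood first at 240 TPM, followed by ID1 (212), SMAD3 (86.6), TGFBR2 (74.1), TGFBR1 (33.5), ID2 (30.4), SMAD7 (11.7), TGFB2 (9.09), ID3 (1.77) and SMAD4 (0.0744). TGFB2 thus stood 2 places lower and TGFBR1 2 places higher. TPM and TMM are different scalings, and TPM gave higher ratios of DHA to NC than TMM. ID1 was 207 and 212 TPM beside a TMM-scaled log2 ratio of -0.13, and SMAD3 74.0 and 86.6 TPM beside 0.06. All levels and sums in TPM given here, marker sums included, carry this offset against the ratios. Of the neighbours in the DHA order, TGFBR1 and ID2 overlapped in their counting intervals of the level (31.4 to 35.7 and 26.9 to 34.2 TPM), as did SMAD7 and TGFB2 (10.3 to 13.3 and 7.85 to 10.5 TPM). In the untreated library no neighbours among these genes overlapped.

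The TGF-beta ligand genes lay on opposite sides. TGFB2 (ENSG00000092969, chromosome 1, 218346235 to 218444619, plus strand, GRCh38) had 600 reads without and 192 with DHA, or 38.98 and 13.2 CPM (reads scaled to the same library size). It was 2.95-fold lower in the DHA library (95% counting interval 2.51 to 3.499), a log2 ratio of -1.56. TGFB1 (ENSG00000105329, chromosome 19, 41301587 to 41353911, minus strand) had 2351 and 3183 reads, or 153 and 218 CPM. Its ratio was 1.43 (1.36 to 1.51), under the 2-fold rule. The read ratio of TGFB1 to TGFB2, which no scaling between libraries can alter, was 3.92 without and 16.6 with DHA, a change of 4.23-fold (3.56 to 5.05). The third ligand gene, TGFB3, had 19 and 15 reads. Per length, TGFB1 made up 85.8% of the summed level of these ligand genes without DHA and 96.1% with it, and TGFB2 13.8% and 3.64%. The summed level was 175 and 249.6 TPM. This scale shows a larger difference than TMM, since TGFB1 alone was 150 and 240 TPM beside its TMM-scaled ratio of 1.43.

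Of the exon length of TGFB2, 26.6% is shared with TGFB2-OT1, a non-coding gene on the same strand that had 0 reads in both libraries; how reads there were assigned is not given in the sources used here. For TGFB1, 6.64% is shared with genes on the other strand, and whether the counts used strand is unknown, so reads there cannot be told apart. The genes that overlap TGFB1 were HNRNPUL1, with a log2 ratio of -0.46, CCDC97 with 0.18, TMEM91 with 6 and 19 reads, and AC011462.1 with 0 reads. The nearest genes with at least 50 reads beside TGFB2 were RRP15, 8.25 kb away, with a log2 ratio of -0.10, and LYPLAL1, with -0.22. Beside TGFB1 these were AXL, a receptor kinase gene (0.41), and EXOSC5 (-0.54). None of these neighbours passed the 2-fold rule.

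The promoter windows of both ligand genes are shown because their ratios lay on opposite sides of 1 and they differ in base composition. They are RefSeq windows on GRCh38.p14, of 250 bases before and 50 from the annotated start, and all 10 genes had at least 1 window. The TGFB1 window (chr19:41353873-41354172, minus strand) is 77.3% G and C, and the TGFB2 window (chr1:218345086-218345385, plus strand) 51.7%. The RefSeq start of TGFB2 lies 899 bases upstream of the gene start in the deposited table. Capitals mark matches to 7 short motifs searched on both strands: GTCTAGAC (a palindromic SMAD element), CAGACA (an extended SMAD element), GGCGCC (a GC-rich element of SMAD1 and SMAD5), TGACGTCA (the cAMP response element), TGANTCA (AP-1), GCGGGGGCG (EGR) and CACGTG (an E-box).
TGFB1: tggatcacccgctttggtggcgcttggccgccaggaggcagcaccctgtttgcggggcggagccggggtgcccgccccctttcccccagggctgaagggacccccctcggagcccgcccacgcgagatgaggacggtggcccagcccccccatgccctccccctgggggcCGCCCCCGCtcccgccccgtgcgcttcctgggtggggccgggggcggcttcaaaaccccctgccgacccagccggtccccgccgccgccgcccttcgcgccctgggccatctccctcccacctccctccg
TGFB2: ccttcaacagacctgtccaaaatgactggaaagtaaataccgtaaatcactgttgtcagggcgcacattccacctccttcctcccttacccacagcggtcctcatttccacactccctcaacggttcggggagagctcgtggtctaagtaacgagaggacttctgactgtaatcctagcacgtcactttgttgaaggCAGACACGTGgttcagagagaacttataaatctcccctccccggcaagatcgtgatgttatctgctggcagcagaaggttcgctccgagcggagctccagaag
TGFB1 held an EGR match on the opposite strand, a motif found in 5.07% of 35116 such windows. TGFB2 held overlapping matches to the extended SMAD element and the E-box, which are found in 16.9% and 7.26% of windows. A match describes letters only.

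The receptor genes also lay on opposite sides, both under 2-fold. TGFBR1, the type I receptor kinase (ENSG00000106799, chromosome 9, 99104038 to 99154192, plus strand), had 662 reads without and 940 with DHA, or 43.0 and 64.5 CPM. Its ratio was 1.499 (1.36 to 1.66), just under 1.5-fold. TGFBR2, the ligand-binding type II receptor (ENSG00000163513, chromosome 3, 30606502 to 30694142, plus strand), had 2205 and 1429 reads, or 143 and 98.04 CPM. It had a log2 ratio of -0.55 (-0.64 to -0.45). The read ratio of TGFBR1 to TGFBR2 was 0.3002 and 0.658, a change of 2.19-fold (1.94 to 2.47). Per length, TGFBR1 stood at 0.206 of the TGFBR2 level without DHA and at 0.452 with it, so that the type II receptor transcript was the more abundant in both. The co-receptor gene TGFBR3, which encodes betaglycan and presents TGF-beta2 to the type II receptor, had 1966 and 929 reads. It was 2.003-fold lower (1.85 to 2.17), and under 2-fold when libraries were scaled by total reads (log2 ratio -0.99). No exon of TGFBR1 or TGFBR2 is shared with another annotated gene. The pseudogenes inside them, RNA5SP290 and AC096921.1, had 0 reads. The nearest counted genes, GALNT12 and ALG2 beside TGFBR1 and AZI2 and STT3B beside TGFBR2, had log2 ratios of -0.46, 0.29, 0.67 and 0.11, and none was called.

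**Figure D2:**
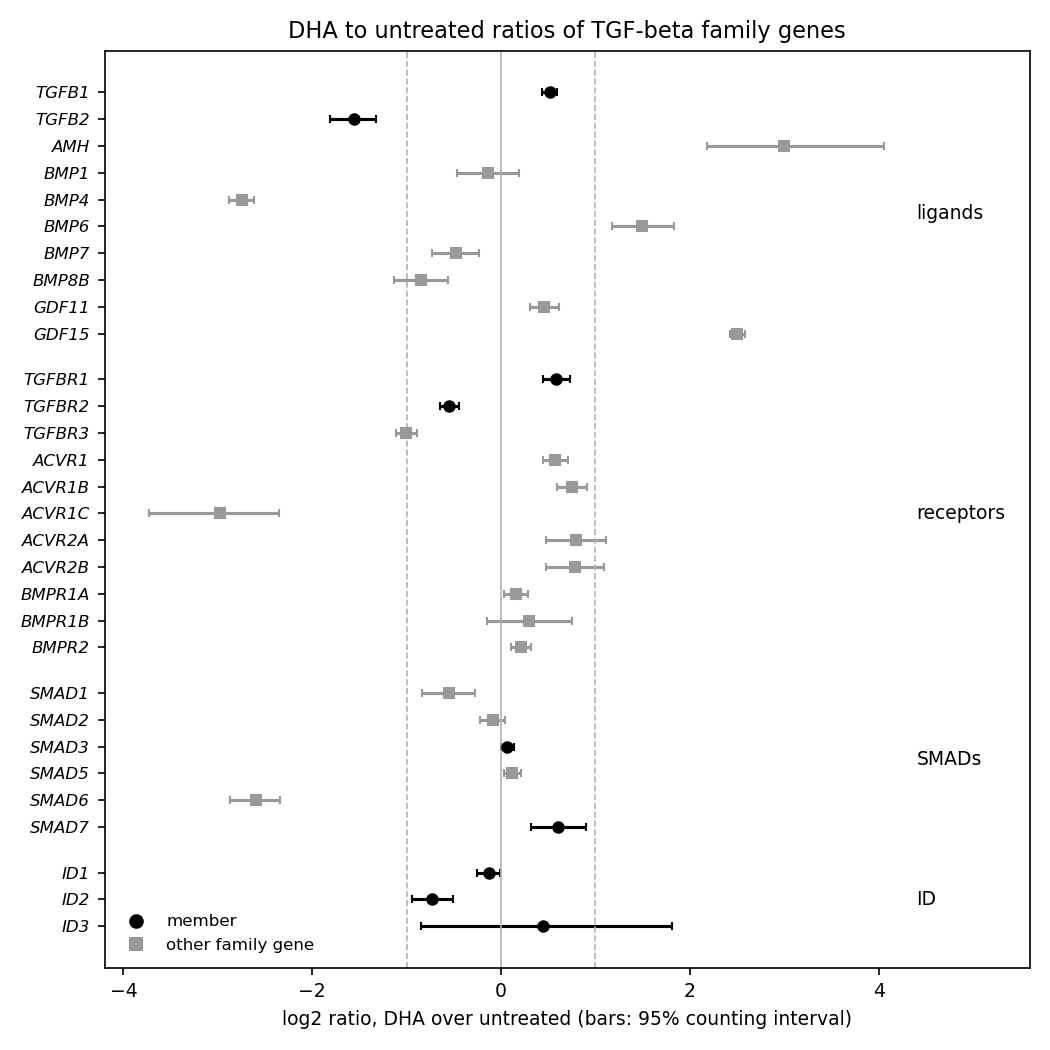
Log2 ratio (DHA over NC) for members (black circles) and other TGF-beta family ligand, receptor and SMAD genes with at least 50 reads (grey squares), and ID3 with fewer. The co-receptor genes CD109, NRP1 and RGMB are not drawn. Bars are 95% counting intervals and dashed lines mark 2-fold. TGFB2 is the only member past a dashed line, and ACVR1C, BMP4 and SMAD6 lie near the low end.

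SMAD3, the receptor-activated SMAD of TGF-beta signalling (ENSG00000166949, chromosome 15, 67063763 to 67195195, plus strand), was nearly level. It had 3269 reads without and 3237 with DHA, or 212 and 222 CPM. The ratio was 1.05 with a counting interval of 0.996 to 1.10, so with TMM scaling no difference was detectable beyond counting error. This depended on the scaling. By total reads the log2 interval was 0.0049 to 0.146 and excluded 0, and by the upper quartile the log2 ratio was -0.0005. Of the activating SMADs, SMAD3 took the largest share of the summed level per length, 56.3% and 57.3%, ahead of the BMP-side SMAD5 (32.3% and 34.1%). The length of a gene is the union of its annotated exons and not that of a single transcript, so such shares depend on the annotation. The other TGF-beta SMAD, SMAD2, had 928 and 825 reads and a log2 ratio of -0.09 (-0.23 to 0.05), and SMAD5 and SMAD1 had 0.12 and -0.55.

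The inhibitory SMAD genes had ratios on opposite sides of 1, of which that of SMAD6 passed 2-fold. SMAD7, which recruits ubiquitin ligases to the TGF-beta receptors and is itself induced by the pathway (ENSG00000101665, chromosome 18, 48919853 to 48952052, minus strand), had 168 and 242 reads, or 10.9 and 16.6 CPM. Its ratio was 1.52 (1.24 to 1.86), under 2-fold. SMAD6, the inhibitor more active on the BMP side and no member of the set, had 873 and 136 reads and was 6.06-fold lower in the DHA library (5.07 to 7.34). Per length, SMAD6 held 75.3% of the summed level of the inhibitory SMADs in the untreated library and SMAD7 75.2% in the DHA library. Their summed level was 27.9 and 15.6 TPM. SMAD6 lies 280.9 kb from SMAD3 on chromosome 15 and on the same strand, and is its nearest neighbour on that side with at least 50 reads. AAGAB, 5.84 kb from SMAD3 on the other side, had a log2 ratio of 0.54. The read ratio of SMAD3 to SMAD7 was 19.5 and 13.4, a change of 0.688 (0.558 to 0.846). The antisense genes that overlap SMAD3, AC087482.1 across its start and AC012568.1 within it, had 2 reads each in both libraries. Beside SMAD7, CTIF, a translation factor gene 56.6 kb away, was 2.48-fold higher with DHA, and DYM had a log2 ratio of 0.21.

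SMAD4, the common partner of all activating SMADs (ENSG00000141646, chromosome 18, 51028394 to 51085045, plus strand), had no read counted without DHA (0 reads) and 4 with it. The limit that goes with 0 counted reads, 3 reads, corresponds to 0.195 CPM or 0.0472 TPM there. The 4 reads are 0.274 CPM (95% Poisson interval 0.0748 to 0.703). At the level per length of SMAD2, SMAD4 would have had 335 reads without and 298 with DHA, values that depend on the annotated exon lengths of both genes. Of its 13123 bases of exon, 12156 are shared with no other annotated gene, so overlap with AC091551.1, a protein-coding gene on the same strand with 0 reads, concerns 967 bases. Among 1879 protein-coding genes with at least 10000 bases of exon, 260 had 4 or fewer reads in each library. No fold is given for SMAD4. The state of the gene in the cell line was not measured.

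The genes beside SMAD4 were counted. ELAC1, a transfer RNA processing enzyme gene 40.3 kb before it, had 73 and 56 reads and a log2 ratio of -0.30 (-0.83 to 0.22). MEX3C, an RNA-binding ubiquitin ligase gene 89.5 kb after it, had 475 and 677 reads and a log2 ratio of 0.59 (0.42 to 0.76). ME2, which encodes the mitochondrial malic enzyme, had 966 and 1166 reads. Within 2.5 Mb of the SMAD4 start, 13 of 22 protein-coding genes had at least 50 reads. Of these, CTIF was called higher (112 and 264 reads) and ACAA2 lower (1109 and 458 reads). SMAD7 lies in the same stretch, 2.08 Mb from SMAD4. DCC, a netrin receptor gene on the far side, had 0 reads in both libraries.

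**Figure D3:**
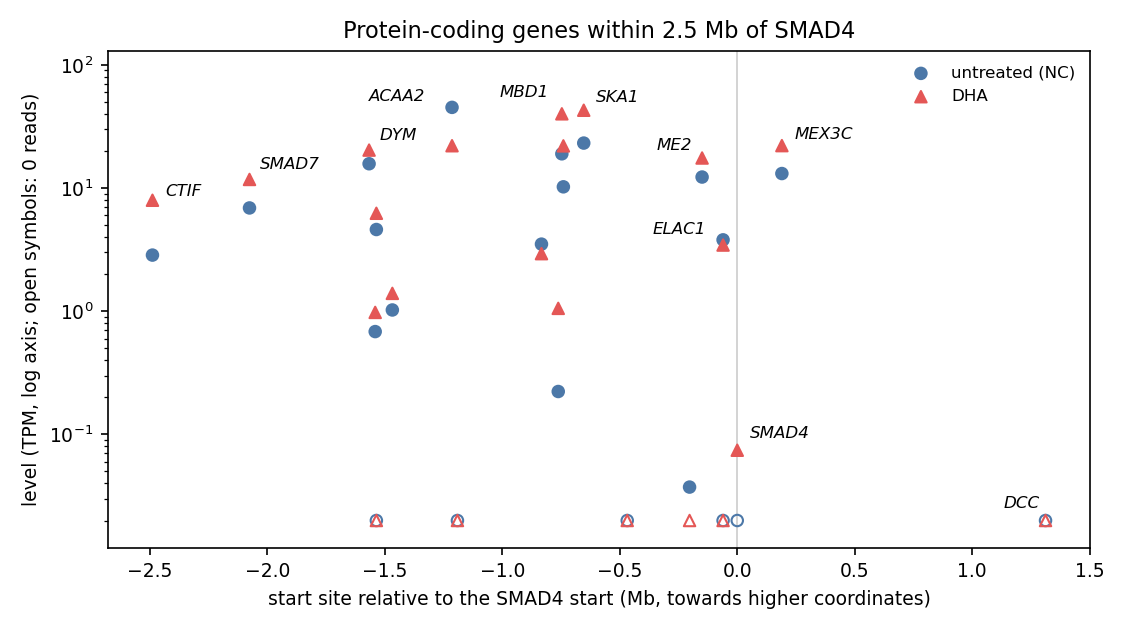
Level (TPM, log axis) of the 22 protein-coding genes whose annotated start lies within 2.5 Mb of that of SMAD4, against the distance of the start sites in Mb, in the untreated (blue circles) and the DHA library (red triangles). Open symbols at the bottom stand for 0 reads; SMAD4 lies at or under 0.0744 TPM, whereas ELAC1, ME2 and MEX3C beside it lie between 3.44 and 22.1 TPM.

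The promoter windows of the SMAD3 and SMAD4 genes are shown because SMAD3 was among the better counted members and SMAD4 was almost uncounted. The SMAD3 window (chr15:67065352-67065651, plus strand) is 80.3% G and C and the SMAD4 window (chr18:51029963-51030262, plus strand) 66.7%. Their RefSeq starts lie 1839 and 1819 bases downstream of the gene starts in the deposited table.
SMAD3: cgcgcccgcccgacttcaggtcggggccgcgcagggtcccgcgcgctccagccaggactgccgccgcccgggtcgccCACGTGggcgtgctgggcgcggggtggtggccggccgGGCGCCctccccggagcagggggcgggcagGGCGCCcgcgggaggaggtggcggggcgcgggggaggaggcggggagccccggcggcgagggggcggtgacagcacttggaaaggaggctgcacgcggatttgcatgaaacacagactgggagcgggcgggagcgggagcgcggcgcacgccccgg
SMAD4: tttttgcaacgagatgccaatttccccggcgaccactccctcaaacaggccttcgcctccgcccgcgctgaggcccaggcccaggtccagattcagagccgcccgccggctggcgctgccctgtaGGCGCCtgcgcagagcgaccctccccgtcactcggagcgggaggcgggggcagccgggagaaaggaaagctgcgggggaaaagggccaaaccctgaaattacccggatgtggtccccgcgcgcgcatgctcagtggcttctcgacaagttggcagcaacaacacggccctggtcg
SMAD3 held an E-box match and 2 matches to the GC-rich element of SMAD1 and SMAD5, and SMAD4 held 1 of the latter, which 19.2% of all windows hold. The first listed window of each gene is described, although TGFBR1 has 8, SMAD3 5, SMAD7 3 and TGFBR2 2. In that window of the other members, TGFBR1, TGFBR2, SMAD7, ID1, ID2 and ID3, none of the 7 motifs was found, which says only that these letters are not in these 300 bases. Later windows did hold matches: in TGFBR1 the extended SMAD element (windows 3 and 4) and the GC-rich element (window 7), in TGFBR2 the AP-1 motif (window 2), and in SMAD3 the AP-1 motif (window 3) and the extended SMAD element (window 4).

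The ID genes differed in level more than between libraries. ID1 (ENSG00000125968, chromosome 20, 31605283 to 31606515, plus strand) had 1238 and 1070 reads, or 80.4 and 73.4 CPM, with a log2 ratio of -0.13 (-0.25 to -0.01). The sign of this ratio was not stable, since it was 0.15 once a trend of the ratio on gene length was removed. ID1 has 1233 bases of exon, the shortest of the members. ID2 (ENSG00000115738, chromosome 2, 8678845 to 8684453, plus strand) had 481 and 275 reads, or 31.2 and 18.9 CPM. It had a log2 ratio of -0.73 (-0.95 to -0.51), 1.66-fold lower and under the 2-fold rule. ID3 (ENSG00000117318, chromosome 1, 23557918 to 23559794, minus strand) had 10 and 13 reads, or 0.6496 and 0.892 CPM. Its ratio of 1.36 had a counting interval of 0.556 to 3.498, and no difference was detectable at this depth. ID4 had 0 reads in both libraries.

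Per length, ID1 made up 81.8% of the summed level of the ID genes without DHA and 86.8% with it, and ID2 17.8% and 12.5%. The summed level was 253 and 244 TPM. The read ratio of ID1 to ID2 was 2.57 and 3.89, a change of 1.51-fold (1.27 to 1.798). The changes of ID1 to ID3 (0.665, 0.260 to 1.65) and of ID2 to ID3 (0.440, 0.170 to 1.10) had intervals that included 1, as few reads of ID3 were counted. In all, 7 such pairs were set, and SMAD3 to SMAD4 gave no change because SMAD4 had 0 reads in the untreated library. The antisense gene ID2-AS1 overlaps ID2 and had 3 and 9 reads. The genes beside ID1, HM13 and BCL2L1, had log2 ratios of 0.11 and 0.53 and were not called. Next to ID2, KIDINS220, 36.6 kb away, was 2.08-fold higher in the DHA library, and RNF144A had a log2 ratio of -0.05. Beside ID3, the cell-cycle factor gene E2F2, 26.7 kb away, was 5.59-fold lower, and the ribosomal protein gene RPL11 had a log2 ratio of 0.03.

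**Figure D4:**
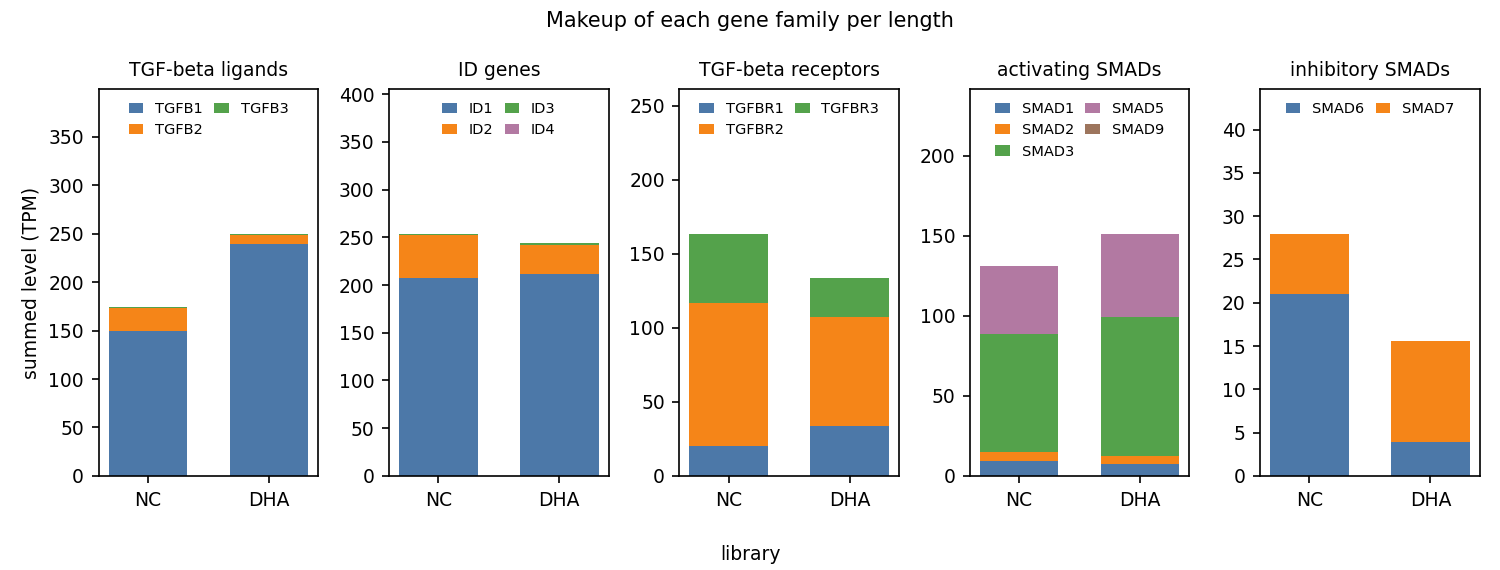
Summed level (TPM) of 5 gene families in the untreated (NC) and the DHA library, with each bar divided by gene and each panel on its own axis from 0. TGFB1 and ID1 fill most of their bars in both libraries, and the inhibitory SMAD bar is mostly SMAD6 (75.3%) in NC and mostly SMAD7 (75.2%) in DHA.

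Around the members, 176 other pathway genes in 9 lists were read. Of these, 104 had at least 50 reads, and by the same rule 16 (15.4%) were called higher and 19 (18.3%) lower, beside 6.72% and 10.3% of all genes. Their median log2 ratio was 0.16. The lists were chosen with earlier results of these data known, so these shares describe the lists and do not set them apart.

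Among 26 other family ligand genes, 8 passed the minimum, and 3 were higher and 1 lower (median 0.16). BMP4, which signals through SMAD1 and SMAD5, had 3713 and 524 reads and was 6.70-fold lower (6.12 to 7.37). BMP6, the BMP known for inducing hepcidin, had 108 and 288 reads and was 2.81-fold higher (2.25 to 3.55). GDF15, a stress-induced distant member, was 5.66-fold higher, and AMH, the anti-Müllerian hormone gene, had 12 and 94 reads. The other ligand genes past the minimum, BMP7, BMP8B, GDF11 and BMP1 (a protease despite its name), had log2 ratios of -0.48, -0.84, 0.46 and -0.14.

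Of 18 other receptor and co-receptor genes, 12 passed the minimum, 0 were higher and 2 were lower, TGFBR3 and ACVR1C (median 0.26). ACVR1C, which encodes the type I receptor ALK7, had 178 and 21 reads and was 7.86-fold lower (5.09 to 13.3). The activin receptor genes ACVR1B, ACVR2A and ACVR2B had log2 ratios of 0.75, 0.79 and 0.78. The best counted, the co-receptor genes CD109 and NRP1 and the BMP type II receptor gene BMPR2, had -0.69, -0.65 and 0.21.

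Among genes that hold TGF-beta latent or release it, most ratios past the minimum lay below 0. Of 18, 12 passed the minimum, and 10 of these lay below 0, with a median of -0.82. By the 2-fold rule 5 were lower and 0 higher, beside 10.3% and 6.72% of all genes. For 12 genes, 0 higher is near 6.72%, and the receptor list also had 0. With a minimum of 500 reads, 10 genes passed, 4 were lower and the median was -0.48. THBS1, which encodes the TGF-beta activator thrombospondin 1, had 8780 and 1061 reads. ITGB8, the integrin subunit that frees TGF-beta from its latent complex, had 955 and 88 reads and was 10.2-fold lower (8.25 to 12.9). PLAU, the urokinase gene, with 31.1% of its exon length shared with another gene, was 2.55-fold lower, the fibrillin gene FBN1 2.13-fold and the latent TGF-beta binding protein gene LTBP2 2.02-fold. The better counted genes that were not called at 2-fold were ITGB1, ITGB5, ITGAV and LTBP3, with log2 ratios of 0.63, -0.25, -0.14 and -0.70. At 1.5-fold, 1 gene of the list was higher (ITGB1) and 7 were lower, LTBP3 among them. ITGB6, the other epithelial activating integrin subunit, had 35 and 6 reads.

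Of 19 antagonist genes, 5 passed the minimum, and NBL1, a BMP antagonist, was 2.12-fold higher; FSTL1, TWSG1 and FSTL3 had log2 ratios of -0.10, -0.14 and -0.30. Of 32 SMAD partners, co-repressors and ubiquitin ligases, 30 passed, with 2 higher, 1 lower and a median of 0.28. TGIF2, a co-repressor of TGF-beta-activated SMADs, had 515 and 166 reads and was 2.93-fold lower (2.46 to 3.52). Its relative TGIF1 had 624 and 1211 reads and was 2.05-fold higher, with a log2 ratio that dropped just under 1 by DESeq2 scaling (0.996), by the upper quartile (0.97) and after removal of the length trend (0.99). TRAF6, a ubiquitin ligase of the non-SMAD branch, was 2.26-fold higher. HDAC1, a histone deacetylase gene, had 4883 and 2348 reads and a log2 ratio of -0.98, and passed 2-fold lower by DESeq2 scaling (-1.02) and by the upper quartile (-1.04). Under each of these scalings 1 gene of the list was higher and 2 were lower. The best counted genes of that list that were not called were STRAP, PMEPA1 and USP9X, with log2 ratios of 0.17, -0.47 and 0.30. The ubiquitin ligase genes SMURF1 and SMURF2, which work with SMAD7, had 0.48 and 0.44. Over all pathway lists, the ratio nearest to that of TGFB2 was that of TGIF2 (-1.55), followed by FN1 (-1.69), and the ratios nearest to that of ID2 were those of LTBP3 (-0.70) and CD109 (-0.69), a likeness over only 2 libraries.

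Genes commonly listed as TGF-beta and SMAD3 targets were called in both directions. Of 39, 29 passed the minimum, 10 were higher and 10 lower, with a median of 0.52, 18 ratios above 0 and 11 below. With a minimum of 500 reads, 8 were higher and 5 lower. Among the higher genes were ANGPTL4 (10.1-fold), CDKN1A (5.87-fold), SPHK1 (17 and 94 reads), CTGF (3.74-fold), BHLHE40 (3.32-fold), LIF (2.26-fold), CYR61 (2.25-fold), SNAI2 (2.07-fold, with 0.99 on the log2 scale under upper-quartile scaling) and TGIF1. CTGF, a matricellular protein gene, had 282 and 999 reads. ANGPTL4 encodes an inhibitor of lipoprotein lipase, CDKN1A the cell-cycle inhibitor p21, SPHK1 a sphingosine kinase, LIF a cytokine, and SNAI2 the transcription factor Slug of the mesenchymal transition. Lower were THBS1 (7.83-fold), COL1A1 (83 and 11 reads), COL5A1 (5.84-fold), LMCD1 (71 and 16 reads), COL7A1 (4.10-fold), TGFBI (3.75-fold), FN1 (3.23-fold), PDGFB (2.19-fold), TPM1 (2.08-fold) and LTBP2. Apart from LMCD1 and PDGFB, a LIM protein and a growth factor gene, the lower genes encode matrix proteins or, for TPM1, an actin-binding protein. PMEPA1, TIMP1 and MYC, the best counted targets that were not called, had log2 ratios of -0.47, 0.15 and 0.04. Many of these genes respond to other pathways too, and the part of the TGF-beta pathway in these ratios was not tested. The lower level of epithelial markers in the DHA library, given above, accompanied these differences, and its part in them was not tested either.

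Of 18 genes listed as BMP targets beside ID1 to ID3, 9 passed the minimum, with 1 higher and 2 lower and a median of 0.05. SMAD6 and the osteogenic factor gene RUNX2 (4.12-fold) were lower, and the homeobox gene DLX2 had 31 and 111 reads and was 3.74-fold higher. MSX1 and HES1, which were not called, had log2 ratios of 0.82 and -0.83. Of the ID-binding E proteins and related factors, TCF3, TCF12 and HES1 passed the minimum and none was called, with 0.04 and 0.61 for TCF3 and TCF12. The tissue-restricted TWIST1 and ASCL2 had 0 reads in both libraries.

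**Figure D5:**
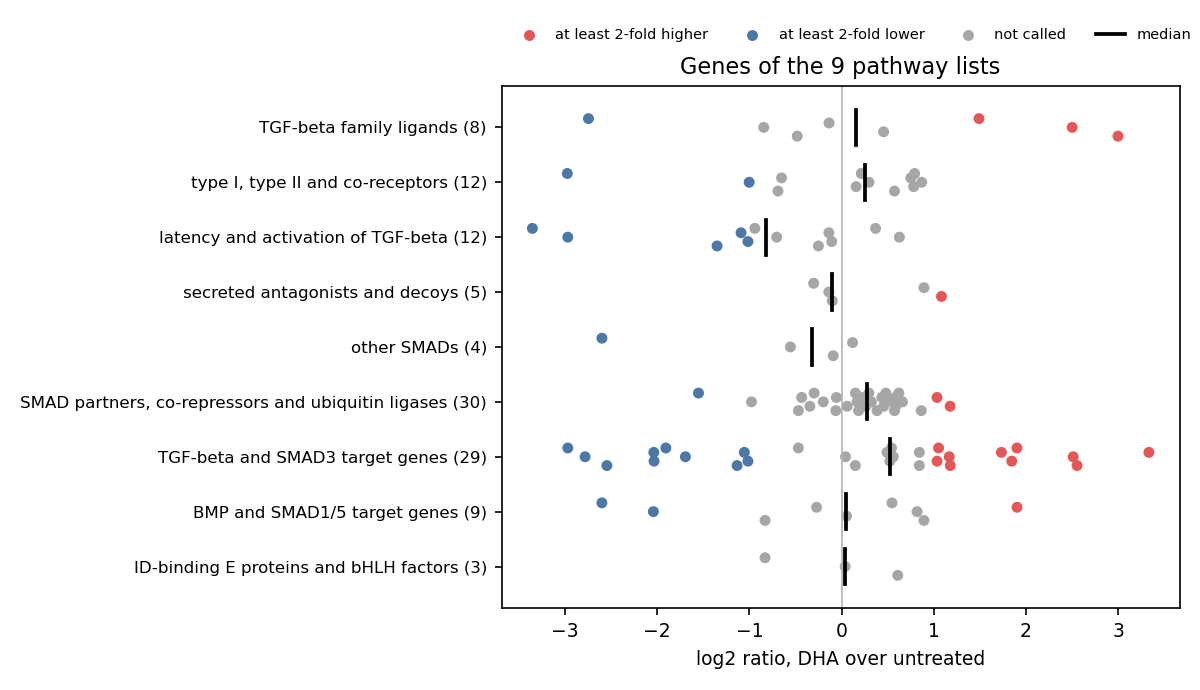
Log2 ratio (DHA over NC) for every gene with at least 50 reads in 9 pathway lists (number of genes in brackets), with genes at least 2-fold higher in red, lower in blue and the list median as a black line. The latency and activation list has the lowest median (-0.82), and the TGF-beta and SMAD3 target list has 10 called genes on each side. With a minimum of 500 reads (not drawn), the BMP target list was lower, at -0.75 (4 genes) against -0.48 (10 genes).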

How the data were processed

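For 1 untreated (NC) and 1 DHA library, the authors deposited raw counts of reads per gene beside each gene's length, per the file headers. Trizol extraction and an Illumina kit for total RNA are named in the labels' protocols. The protocol text names retina and the submitters' processing notes name a mouse genome build, but all 58735 rows carry the identifiers, positions and exon lengths of human GENCODE release 29 on GRCh38. Not given in the sources used here: aligner, counting tool and use of strand.

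Counts were scaled by TMM (edgeR 4.0.16, R 4.3.3; factors 0.996 and 1.00), and 0.5 reads were added before taking the ratio. Intervals are exact Clopper-Pearson (95%) and, for levels, exact Poisson; PCR copies are not independent molecules, so they cover counting error only. Changes of read ratios are conditional odds ratios (scipy 1.17.1). Members and lists were chosen with earlier results of these data known. Named genes are the members, their neighbours, every called list gene and up to 3 of the best counted others of a list. Some others were added after their values were seen. These were TGFB3, ITGB6, ID4, BMP1, the activin receptor genes, SMURF1, SMURF2, ME2, DCC, TWIST1, ASCL2, HDAC1 and BAMBI. Some genes that the rule takes are not reported here. Alternatives covered scaling (total reads, DESeq2 1.42.0, upper quartile, without mitochondrial genes), pseudocount, length trend, read minimum, fold and interval; removal of a GC trend and of genes sharing exons was added after seeing the data.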

Additional observations from a re-analysis of the deposited data

How the results depend on the processing

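No paired analysis was possible because each group has 1 library, and for the same reason no library could be left out. Over 8 alternatives of scaling, pseudocount and trend, 0 of 72 recomputed log2 ratios of members changed their call at 2-fold. ID3 was under the minimum of 50 reads in all of them, so its call could not change. Of the 72 ratios, 4 left the main counting interval. These were ID1, at 0.15 with the length trend removed and 0.14 with the GC trend removed as well, and TGFB1, at 0.61 and 0.60. TGFB2 ranged from -1.63 to -1.55. At 1.5-fold, 1 member was higher and 2 were lower, and at 3-fold 0 were lower. Over all genes, 1297, 1432 and 431 were called higher and 2126, 2386 and 379 lower with minimums of 10, 1 and 500 reads. At 1.5-fold the counts were 2284 and 2320, and at 3-fold 219 and 556. Of the pathway list genes, 9 were higher with a minimum of 500 reads, 30 at 1.5-fold and 9 at 3-fold, and 12 were lower at 3-fold. These shifts follow from fewer or more genes tested or a different threshold. Of 270 recomputed counts of single lists, 44 moved by over 1.5 times. Upper-quartile scaling left the median of all genes at -0.03. Depth limits ID3 and SMAD4, whose counts allow no difference to be read.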
